A study of Drosophila melanogaster with 8 samples.

Results

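Cytochrome P450 genes of Drosophila melanogaster heads were examined as a group, in flies given a convulsant and then an antiepileptic drug. The members were the genes whose current symbol reads Cyp, a family number, a letter group and a gene number, with Cyp4d21 and the cyclophilins left out. They came to 68 of the 6793 genes named singly on the array and are defined by symbol alone. They were spotted as 258 rows, which form 129 clones of 2 adjacent rows each. The rows of a gene were averaged on each array.

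The flies were unmated Oregon-R males, a wild-type strain, aged 3 to 4 days at the start. Treated flies of both groups ate pentylenetetrazole food for 7 days and sodium valproate food for the next 3 days. Pentylenetetrazole blocks GABA-A receptors and provokes seizures, and valproate is an antiepileptic that also inhibits histone deacetylases. The day 14 group then spent 4 days on normal food before its heads were taken (4 arrays). The day 10 group was taken at the end of valproate (4 arrays). Controls on each array were flies of the same strain and sex that had eaten normal food for the same time, so no group received 1 drug alone. Heads of several vials went into each RNA pool, and per the series text the arrays within a group come from separate biological replicates. The doses conflict: the labels have 8 mg/ml for pentylenetetrazole and 0.33 mg/ml for valproate, and the series text has 0.33 mg/ml and 24 mg/ml.

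P450 enzymes hold a haem group and insert 1 oxygen atom of molecular oxygen into their substrate, with electrons passed on from NADPH by partner proteins. Insect P450 genes are usually sorted into 4 clans. CYP3 clan genes (families Cyp6, Cyp9, Cyp28, Cyp308, Cyp309, Cyp310 and Cyp317 here) include many enzymes that clear plant toxins, drugs and insecticides. CYP4 clan genes (Cyp4, Cyp311, Cyp312, Cyp313 and Cyp316) include fatty acid hydroxylases, while the CYP2 and mitochondrial clans hold hormone-making enzymes beside others. In flies these enzymes are best known from the gut, the Malpighian tubule and the fat body, a lipid-storing and detoxifying tissue that also lies inside the head.

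Each array gave, per gene, 1 log2 ratio of treated over control heads, so levels of different genes cannot be ranked. Values below 0 mean less RNA in treated heads. In whole heads, fewer cells of a type and less RNA per cell cannot be told apart. Each sign rests on reading the deposited ratio as Cy5 over Cy3, which is likely but not stated; the other reading turns every sign round. On every array a smaller share of P450 rows than of named rows held a value after the authors' spot filters: 31.8% to 41.1% of P450 rows on day 14 arrays and 33.3% to 63.2% on day 10 arrays, against 45.5% to 59.6% and 56.3% to 84.8% of all named rows. Of the 68 genes, 65 had a value on some array and 11 had one on all 8. With values required on 3 of the 4 arrays of a day, 35 genes could be tested at day 14, 46 could be at day 10, and 28 for the difference between days. Day 10 arrays were wider, with a deposited SD of 0.52 to 0.86, against 0.33 to 0.43 for day 14 arrays. Day 10 replicate 1 had the largest SD of the 8.

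At day 14, after 4 days back on normal food, the P450 genes with the smallest p-values lay lower in treated heads. They were led by Cyp313a1, Cyp9f2, Cyp4e2 and Cyp28d1, at ratios 1.49-fold to 1.77-fold lower. They belong to 4 different families. Genes were called at an adjusted p under 0.05 with limma, a linear model fitted to every feature of the array. The calls depended on the fit. limma called 0 of 35 when both days shared 1 estimate of the spread and of the dye effect. It called these 4 when the day 14 arrays were fitted alone. The fit of both days also called 0 without its dye term, and it called the same 4 when arrays were scaled to a common spread. Which part of the fit mattered was not tested beyond these runs.

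Cyp313a1, a CYP4 clan gene, had log2 ratios of -0.91, -0.93, -0.94 and -0.50 on day 14 replicates 1 to 4. Its mean was -0.82 ± 0.21 (SD, n = 4). All of its arrays lay below 0, and replicate 4 stood nearest to 0. Cyp9f2, a CYP3 clan gene, had -0.91, -1.01, -0.47 and -0.72, a mean of -0.78 ± 0.24 (SD, n = 4). Again no array was above 0, with replicate 3 the least low. Cyp28d1, of the CYP3 clan and linked to nicotine resistance in flies, had -0.80, -0.60, -0.42 and -0.48. The mean of Cyp28d1 was -0.57 ± 0.17 (SD, n = 4), and both unswapped arrays, replicates 1 and 2, were lower than both swapped ones. Cyp4e2, of the fatty acid hydroxylase family, had values on 3 arrays only, at -0.63, -0.83 and -0.48. No value of Cyp4e2 reached 0.

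In the fit of both days, limma's adjusted p was 0.435 for Cyp313a1, 0.708 for Cyp9f2, 0.797 for Cyp4e2 and 0.882 for Cyp28d1. That fit called 0% of the 7529 features tested. An unadjusted p under 0.05 went to 5 P450 genes, all lower, and to no higher one. Over all features 2.56% were lower and 1.42% higher at that p. The fifth was Cyp4ac1 at -0.46, -0.41, -0.51 and -0.28 (fitted -0.41 ± 0.17, SE, unadjusted p = 0.0324), below 0 on every day 14 array. With the day 14 arrays fitted alone, limma's adjusted p was 0.00523 for Cyp313a1, 0.00523 for Cyp9f2, 0.0213 for Cyp28d1 and 0.0485 for Cyp4e2. That fit called 70 features, or 0.93%, and the lower ones were 0.691% of all tested. It gave an unadjusted p under 0.05 to 6 lower P450 genes and 1 higher one, and to 11.8% of all features. Leaving out a further array from it kept Cyp313a1 and Cyp9f2 called in each of 4 cases. Cyp28d1 was no longer called without replicate 3 (adjusted p = 0.106) or replicate 4 (adjusted p = 0.108), Cyp4ac1 was called without replicate 1 (0.0347) or 2 (0.0367), and Cyp4e2 could be tested only without replicate 2. If the swapped arrays had already been turned before deposit, the fitted values would be -0.10 for Cyp313a1, -0.18 for Cyp9f2, -0.13 for Cyp28d1 and 0.18 for Cyp4e2.

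**Figure D1:**
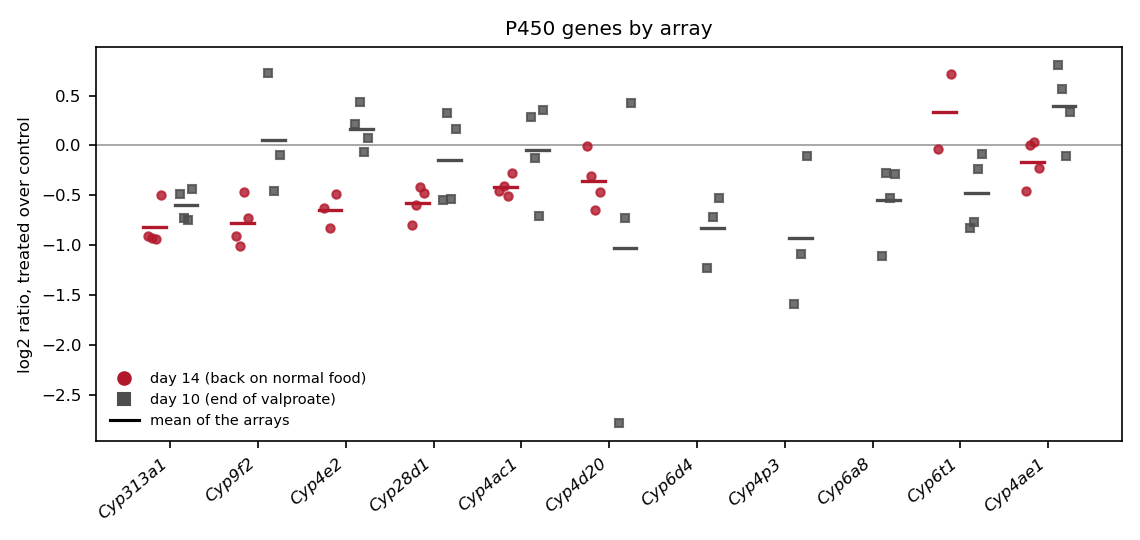
Log2 ratios of treated over control heads for 11 P450 genes, 1 point per array, with day 14 (red circles) left of day 10 (grey squares) and a bar at the mean of the arrays. Cyp313a1 lies below 0 on all 8 arrays, while Cyp9f2, Cyp4e2, Cyp28d1 and Cyp4ac1 are below 0 on every measured day 14 array and spread across 0 at day 10.

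Over the whole group at day 14, 22 of the 35 tested P450 genes had a fitted value below 0, beside 50.7% of all features tested. The median P450 log2 ratio was -0.12 and the median of all features was -0.00. Array by array, the median over P450 genes with a value was -0.12, -0.01, -0.19 and -0.20 on replicates 1 to 4, so replicate 2 was closest to 0. Of the 24 P450 genes with values on all 4 day 14 arrays, 7 lay below 0 on every one and 0 above 0 on every one, where 8.87% and 6.32% of all such features did. Beside Cyp313a1, Cyp9f2, Cyp28d1 and Cyp4ac1 these 7 were Cyp4p1, Cyp4d20 and Cyp311a1. Cyp4p1 had -0.51, -0.13, -0.05 and -0.25, and Cyp4d20 fitted at -0.36 ± 0.36 (SE). Neither had an unadjusted p under 0.05 in the fit of both days. Cyp6a22 was highest, at 0.12, 0.46 and 0.50 on its 3 arrays and 0.34 ± 0.19 fitted (SE, adjusted p = 0.999 with limma).

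By family, 6 of 10 tested Cyp4 genes lay below 0 at day 14, with a median of -0.20. They ran from Cyp4e2 at the low end to Cyp4ac3 at 0.20 ± 0.16 (SE, n = 3). The 10 Cyp6 genes, the family with most known detoxification enzymes, divided evenly around a median of -0.00, with Cyp6d5 lowest at -0.24 ± 0.19 (SE, n = 4). Among its members, Cyp6a20, which is known for its effect on fighting between male flies, had -0.69, -0.31, 0.19 and 0.16. That gene changed sign with the dye orientation and lay at -0.16 ± 0.16 (SE).

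The smaller families had 2 or 3 tested genes each, of which 2 of 3 lay below 0 in Cyp28 and 2 of 2 in both Cyp313 and Cyp9. In Cyp28, Cyp28d2 stood at 0.04 ± 0.18 (SE, n = 3) beside Cyp28d1, and Cyp28c1 completed the family at -0.45 ± 0.43 (SE, n = 3). In Cyp313, Cyp313b1 stood at -0.09 ± 0.19 (SE, n = 3) beside Cyp313a1. In Cyp9, Cyp9b1 stood at -0.14 ± 0.14 (SE, n = 4) beside Cyp9f2. The mitochondrial Cyp12a4 and Cyp12a5, which have been tied to insecticide resistance in flies, had -0.04 ± 0.13 and 0.09 ± 0.15 (SE, n = 4 each). Differences between genes of a family were not tested. The CYP2 clan gene Cyp303a1, required for mechanosensory bristles, lay at -0.14 ± 0.14 (SE, n = 4). Between families, the medians of the P450 genes tested were not compared by a test.

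At day 10, at the end of valproate, more P450 genes could be tested and most fitted values again lay below 0, but single genes scattered more. Cyp313a1 was the P450 gene with the smallest p here as well, 1.51-fold lower in treated heads. The other low genes were different from those leading at day 14: Cyp6d4, Cyp4p3, Cyp6a8 and Cyp6t1 had values on too few day 14 arrays to be tested there. Cyp4ae1 stood highest. None of these passed the threshold.

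Cyp313a1 had log2 ratios of -0.48, -0.73, -0.74 and -0.43 on day 10 replicates 1 to 4, a mean of -0.60 ± 0.16 (SD, n = 4). No array came near 0. Cyp6d4, a Cyp6 gene, had -1.23, -0.72 and -0.52 on its 3 arrays. Cyp4p3, from a run of neighbouring Cyp4 genes, had -1.59, -1.08 and -0.11 on 3 arrays. For both genes replicate 1 was the lowest array. Cyp6a8, which is induced by barbiturates in flies and hydroxylates lauric acid, had -1.10, -0.27, -0.53 and -0.29. Cyp6t1 had -0.82, -0.77, -0.24 and -0.09. Cyp6a8 and Cyp6t1 lay below 0 on all 4 arrays, with the swapped arrays of Cyp6t1 nearest to 0. Of the Cyp6a8 clones tested on their own, clone 1 fitted at -0.91 ± 0.42 and clone 3 at -0.17 ± 0.20 (SE). Cyp4ae1 had 0.81, 0.56, -0.11 and 0.33, so 3 of its 4 arrays were above 0.

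limma called 0 of the 46 tested P450 genes at day 10, in the fit of both days and with day 10 fitted alone, and 0% of the 11509 features tested in either. An unadjusted p under 0.05 went to 5 lower P450 genes and 1 higher one, beside 2.94% lower and 3.74% higher over all features. With day 10 fitted alone the P450 counts at that p were also 5 and 1, and 5.07% of all features passed it. The fitted values were -0.75 ± 0.21 for Cyp6d4, -0.72 ± 0.21 for Cyp4p3, -0.55 ± 0.19 for Cyp6a8, -0.48 ± 0.17 for Cyp6t1 and 0.40 ± 0.17 for Cyp4ae1 (SE). For Cyp313a1 the fit gave -0.60 ± 0.14 (SE, unadjusted p = 0.00183), and the adjusted p was 0.727 for all 6. With the swapped arrays taken as already turned, Cyp313a1 would lie at -0.01 at day 10, and a different P450 gene, Cyp9c1, would be called (0.93, adjusted p = 0.0446 with limma).

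Over the group at day 10, 33 of 46 P450 genes had a fitted value below 0, beside 43.5% of all features. The median was -0.16, against 0.04 for all features. Of the 26 P450 genes with 4 values, Cyp313a1, Cyp6a8 and Cyp6t1 lay below 0 on every array and 0 lay above 0 on every array, where 2.49% and 6.35% of all such features did. The arrays differed in how low the P450 genes lay, with medians of -0.51, -0.24, -0.20 and -0.03 on replicates 1 to 4. Without replicate 1 the P450 median was -0.12 over the 38 genes that could still be tested. On replicate 1, P450 genes with values on 1 to 3 of the 8 arrays had a median of -1.37 (11 genes), where all such features had -0.38. P450 genes with values on 7 or 8 arrays had a median of -0.33 there (27 genes), where all such features had 0.03. The low values on this array were therefore largest among the P450 genes seldom measured elsewhere. Cyp4d20 had -2.79 on replicate 1, far below its -0.72 and 0.42 on replicates 2 and 4. It fitted at -0.92 ± 0.49 (SE, n = 3), the lowest P450 value of the day, and at -0.15 without replicate 1.

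**Figure D2:**
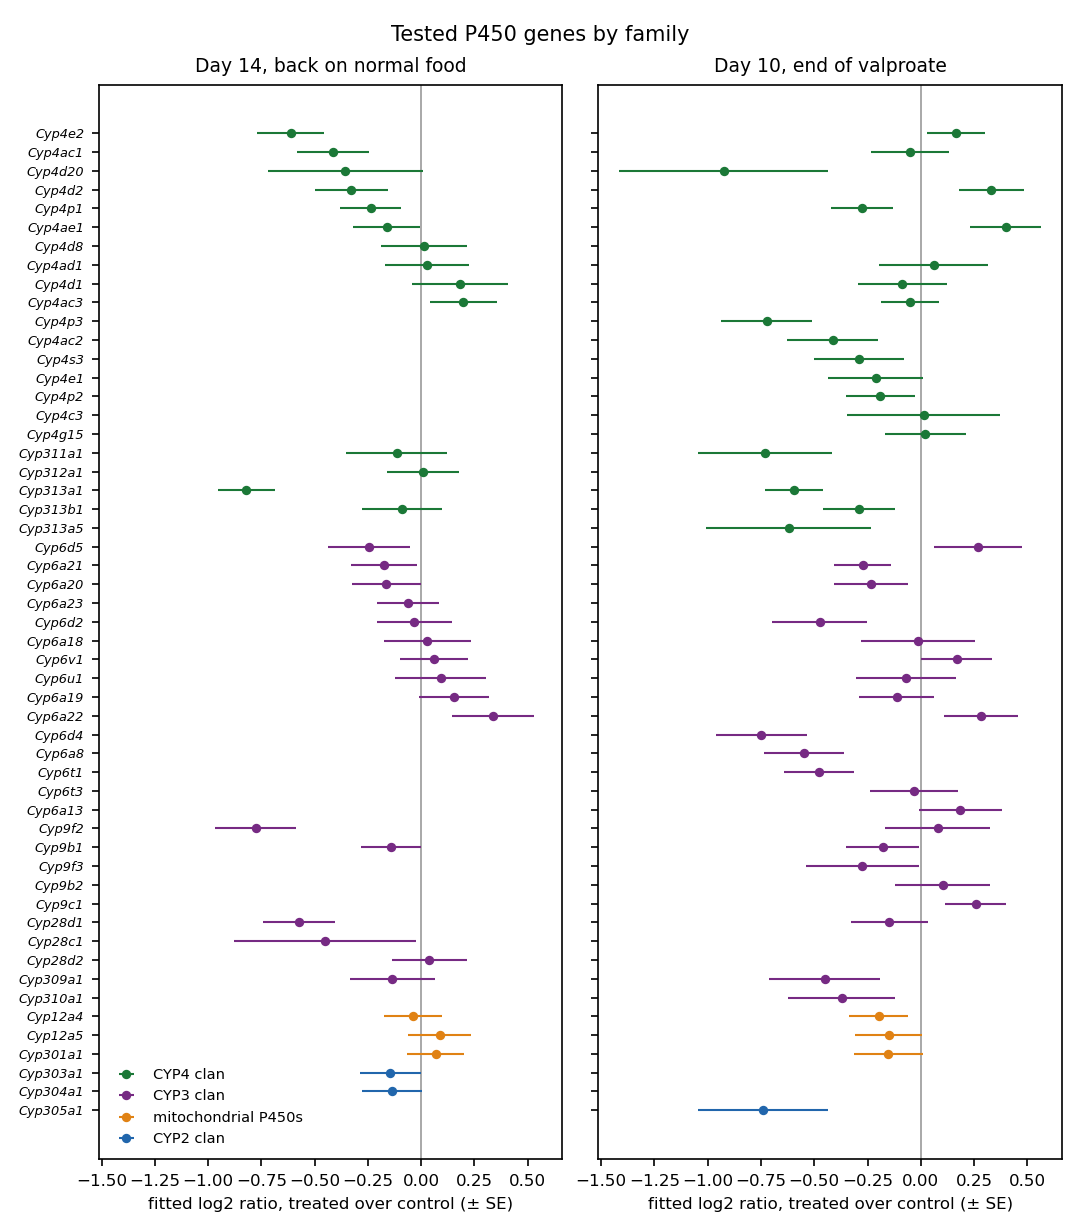
Fitted log2 ratios of treated over control heads with standard errors for the P450 genes tested at day 14 (left) and at day 10 (right), 1 line per gene, coloured by clan and ordered by family. More points lie left of 0 than right of it on both days (22 of 35 at day 14 and 33 of 46 at day 10), and members of 1 family spread widely, as the Cyp4 genes do at day 14 between Cyp4e2 at -0.61 and Cyp4ac3 at 0.20.

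By family at day 10, 10 of 16 Cyp4 genes lay below 0, with a median of -0.07 and a range from Cyp4d20 to Cyp4ae1. In Cyp6, 10 of 14 lay below 0, with a median of -0.09, from Cyp6d4 to Cyp6a22 at 0.28 ± 0.17 (SE, n = 4). All 3 tested Cyp313 genes lay below 0. Beside Cyp313a1 these were Cyp313b1 at -0.29 ± 0.17 (SE, n = 4) and Cyp313a5 at -0.62 ± 0.39 (SE, n = 3), which had -2.07, -0.37 and -0.02. The Cyp313 genes too rarely measured to be tested, Cyp313a2, Cyp313a3 and Cyp313a4, had -2.28, -1.60 and -2.58 on replicate 1. Replicate 1 was the only day 10 array with a value for Cyp313a2 and Cyp313a4, and the lowest of the measured ones for Cyp313a3, Cyp313a5 and Cyp313b1.

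In Cyp9, 2 of 5 genes lay below 0, with a median of 0.08. Cyp9f3 was lowest at -0.27 ± 0.27 (SE, n = 4), and at 0.11 without replicate 1, its one low array. Cyp9c1 was highest at 0.26 ± 0.14 (SE, n = 4), from 1.10, 1.27, -0.73 and -0.60. Those values split by dye orientation, with an SD of 1.07 between the Cyp9c1 arrays. The SE is that of the fitted value after the dye term and does not show this spread. Cyp4d2 (0.33 ± 0.15, SE; SD 0.86) and Cyp6d5 (0.27 ± 0.21, SE; SD 0.86) were split in the same way. Cyp6d2, at -0.82, -0.33 and -0.17, lay below 0 on its 3 arrays and fitted at -0.47 ± 0.22 (SE).

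Among single-gene families at day 10, Cyp311a1 stood at -0.73 ± 0.32 (SE, n = 3) from -0.84, -1.95 and 0.26. The -1.95 averages a clone 2 value of -4.79 with clone 3 at -0.54, and on clone 3 alone Cyp311a1 fitted at 0.06 ± 0.23 (SE), with the direction turned. Cyp305a1, of the CYP2 clan, stood at -0.74 ± 0.30 (SE, n = 3) from -1.10, 0.10 and -0.98. Neither kept 1 sign across its arrays. Cyp12a4 and Cyp12a5 had -0.20 ± 0.14 and -0.15 ± 0.16 (SE, n = 4 each). Cyp4g15, known from the nervous system of fly larvae, was close to 0 at 0.02 ± 0.19 (SE, n = 3). So was Cyp6t3, known for ecdysone production in larvae, at -0.03 ± 0.21 (SE, n = 3).

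The difference between days asked whether a P450 gene's treated over control ratio differed between the day 14 and day 10 collections. The return to normal food cannot be told apart from the separate flies and array sets of the days. The genes lower at day 14 than at day 10 with the smallest p were Cyp4e2, Cyp9f2, Cyp4d2 and Cyp4ae1, and Cyp313a1 was low on both days. limma called 0 of 28 P450 genes and 0% of 6419 features, also with a dye term for each day. An unadjusted p under 0.05 went to these 4 and to no P450 gene that was higher at day 14, beside 3.8% lower and 2.46% higher over all features. With a dye term for each day, 5 lower P450 genes and 0 higher ones had such a p, beside 9.21% of all features.

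Cyp4e2 had -0.63, -0.83 and -0.48 at day 14, against 0.22, 0.44, -0.07 and 0.08 at day 10, with no overlap. Its difference, day 14 minus day 10, was -0.78 on the log2 scale (95% interval -1.24 to -0.31, unadjusted p = 0.00372). Cyp9f2 had -0.91, -1.01, -0.47 and -0.72 at day 14, against 0.73, -0.46 and -0.09 at day 10. Its highest day 14 array lay next to its lowest day 10 array. The difference for Cyp9f2 was -0.86 (95% interval -1.51 to -0.21), and -0.50 without day 10 replicate 1. Cyp4d2 differed by -0.66 (-1.17 to -0.15) and Cyp4ae1 by -0.56 (-1.05 to -0.07), with an adjusted p of 0.773 for all 4 in limma. Cyp4d2 had 0.05, 0.25 and -0.68 at day 14, against 0.85, 1.27, -0.49 and -0.305 at day 10. Its arrays overlapped between days and split by dye orientation on both, and its interval was taken after the dye term. For Cyp313a1 the difference was -0.22, with a 95% interval of -0.64 to 0.19. That interval holds no change as well as a ratio lower at day 14. Cyp28d1 differed by -0.42 (-0.95 to 0.10), and by -0.22 without day 10 replicate 2. The difference was -0.37 (-0.90 to 0.17) for Cyp4ac1 and -0.51 (-1.11 to 0.08) for Cyp6d5.

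At the other end, Cyp311a1 differed by 0.62 (-0.20 to 1.43) over its gene mean but by -0.16 (-0.77 to 0.46) on clone 3, its only clone tested on both days. The gene mean includes a single clone 2 value of -4.79 on day 10 replicate 2. Cyp4d20 differed by 0.57 (-0.67 to 1.80) and Cyp6d2 by 0.44 (-0.16 to 1.04). Without day 10 replicate 1 the difference of Cyp4d20 was -0.21, so its direction rests on that array. Cyp12a4 and Cyp12a5 differed by 0.16 (-0.27 to 0.58) and 0.24 (-0.23 to 0.70), Cyp313b1 by 0.20 (-0.35 to 0.74) and Cyp9b1 by 0.04 (-0.45 to 0.52). Of the 28 genes, 10 had a difference below 0, beside 54.6% of all features, and the median was 0.06, against -0.03 for all features. The 4 genes lowest in the difference therefore did not stand for the group. By family, 5 of 9 Cyp4 genes and 2 of 9 Cyp6 genes differed to the low side, with medians of -0.03 and 0.07.

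**Figure D3:**
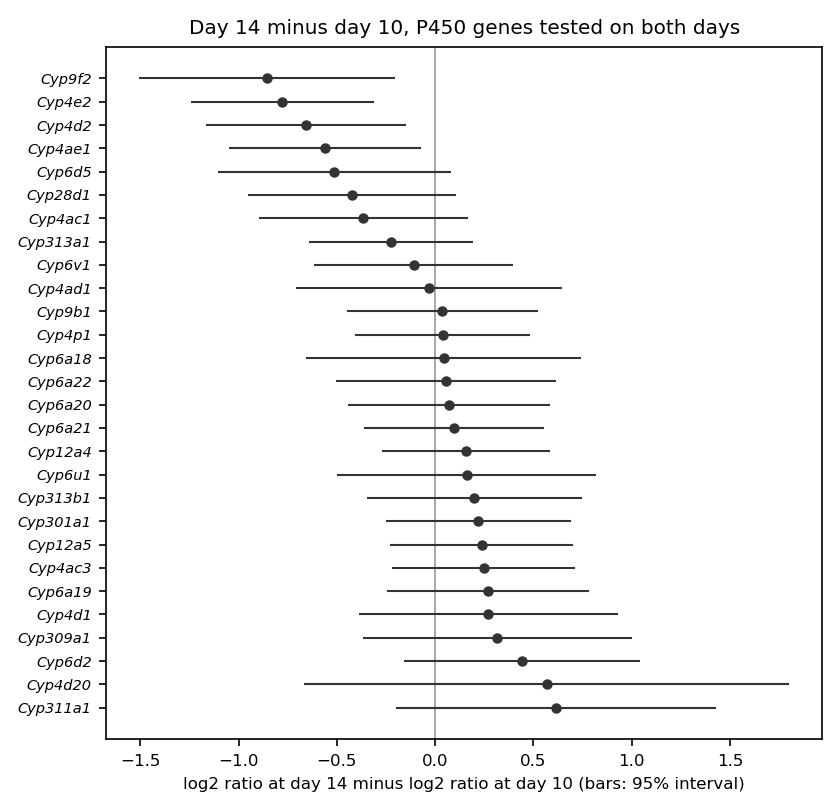
Difference of the log2 ratios of treated over control heads, day 14 minus day 10, for the 28 P450 genes tested on both days, with 95% intervals. The intervals of Cyp9f2, Cyp4e2, Cyp4d2 and Cyp4ae1 lie below 0 and the other 24 include 0. All were taken after the dye term, and the arrays of Cyp4d2 overlapped between days.

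Clones of 1 gene did not always carry the same values, and the filters left different clones on different arrays. Of the 68 genes, 18 had 1 clone, 39 had 2 and 11 had 3. Cyp313a1 had 1 clone, so all its values came from the same spots. Cyp4e2 had values from 1 of its 2 clones on both days. Of the 3 clones of Cyp9f2, clone 2 alone gave the day 14 values and clone 1 had no value. On day 10 replicate 4 the Cyp9f2 mean joined clone 2 at 0.05 with clone 3 at -0.23. On clone 2 alone the difference of Cyp9f2 between days was -0.91 ± 0.29 (SE, adjusted p = 0.752 with limma). The day 14 values of Cyp28d1 came from clone 3 alone, at the values given above. That clone had 0.10, 0.17, 0.05 and -0.11 at day 10, so its 2 sets of arrays did not overlap. The other clones of Cyp28d1 lay lower at day 10, with means of -0.37 (4 arrays) and -0.51 (2 arrays). On clone 3 alone the difference was -0.62 ± 0.18 (SE, adjusted p = 0.75 with limma), larger than the difference of the gene mean.

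Cyp4ae1 had its day 14 values from clone 3 and its day 10 values mainly from clones 1 and 2, so the difference given for it compares clones as well as days. On clone 2 the day 10 value was 0.52 ± 0.18 (SE), and on clone 1 it was 0.04 ± 0.20 (SE). Cyp4ac1 had both clones measured on all 4 day 14 arrays, with means of -0.49 and -0.34. At day 10 they parted, at 0.33 (3 arrays) and -0.17 (4 arrays), and only clone 1 had an interval of the difference below 0 (-0.82, 95% interval -1.44 to -0.19). With clones tested on their own, limma called 0 P450 clones in the fit of both days. Day 14 fitted alone then called 87 of 7711 features. They held clones of 5 of the 34 P450 genes tested, the added one being clone 1 of Cyp4ac1 (adjusted p = 0.0338 with limma). The median difference over P450 clones was -0.00, where the median over gene means was 0.06.

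**Figure D4:**
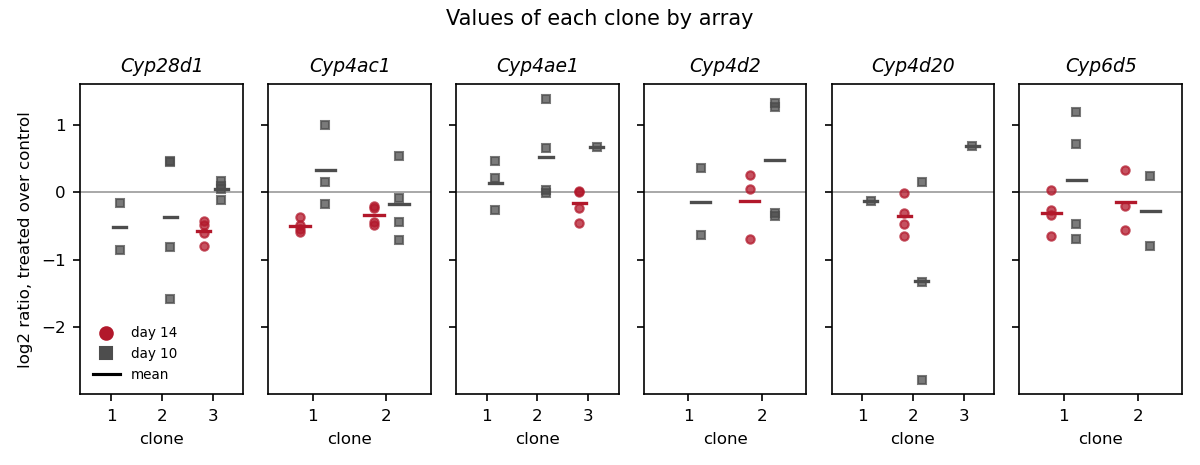
Log2 ratios of treated over control heads for each clone of 6 P450 genes, 1 point per array, with day 14 (red circles) left of day 10 (grey squares) and bars at the means. Clone 3 of Cyp28d1 lies below 0 at day 14 and around 0 at day 10, and Cyp4ae1 has no clone with several arrays on both days.

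P450 genes often lie side by side in the genome. In the gene order of the RefSeq annotation, 36 of the 68 members had another P450 gene as direct neighbour. Neighbours did not share 1 value. Beside Cyp28d1 lies Cyp28d2, near 0 at day 14. Cyp4e2 lies between Cyp4ad1, at 0.03 ± 0.20 at day 14 and 0.06 ± 0.26 at day 10 (SE), and Cyp4e1, at -0.21 ± 0.22 at day 10. In the row of Cyp4ac1, Cyp4ac2 and Cyp4ac3, the day 14 values were -0.41 for Cyp4ac1 and 0.20 for Cyp4ac3, and the day 10 value of Cyp4ac2 was -0.41 ± 0.21 (SE). Cyp4p1 and its neighbours Cyp4p2 and Cyp4p3 were all below 0 at day 10, at -0.28 ± 0.15, -0.19 ± 0.16 and -0.72 ± 0.21 (SE). Around Cyp6a8, its neighbour Cyp6a21 and the next gene Cyp6a20 had -0.27 ± 0.13 and -0.23 ± 0.18 at day 10 (SE). cDNA spots of such close relatives can bind each other's RNA, and how far they did so was not tested.

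Partner genes of the P450 system were sought among the rows naming 1 gene. Another 12430 of the 27648 rows name no gene, so a gene not found may still have been spotted. Of 6 genes listed as electron donors, 2 were present. Cyt-b5-r codes for a cytochrome b5-related protein, and whether it passes electrons to P450 enzymes was not tested. It had -0.43, -0.40, -0.84 and -0.40 at day 14 and lay at -0.52 ± 0.16 (SE). Its adjusted p was 0.913 in limma's fit of both days and 0.0456 with day 14 alone. At day 10 it lay at -0.31 ± 0.17 (SE), and Fdx2, a mitochondrial ferredoxin, at -0.26 ± 0.24 (SE, n = 3). Of 12 symbols listed for haem synthesis and breakdown, some of them spellings of the same gene, 7 were present. At day 10, 4 of these were tested, and 1 was at day 14. Alas, the first enzyme of haem synthesis, lay at 0.27 ± 0.17 and Uros2 at -0.78 ± 0.39 at day 10 (SE), with Uros2 at -2.07 on replicate 1. Urod lay at 0.11 ± 0.14 at day 14.

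Among 13 regulators of P450 genes 8 were present, and 4 were tested at day 14. The stress transcription factor gene crc, the fly ATF4, had -0.37, -0.39, -0.63 and -0.61 at day 14. It lay at -0.50 ± 0.14 (SE) and passed only with day 14 fitted alone (adjusted p = 0.0365 with limma, and 0.86 in the fit of both days). At day 10 crc had 0.51, 0.59, -0.42 and -0.40, split by dye orientation. The nuclear receptor gene Hnf4 stood at 0.26 ± 0.12 at day 14 and -0.25 ± 0.13 at day 10 (SE, n = 4 each). Keap1, the inhibitor of the detoxification factor CncC, stood at 0.53 ± 0.17 at day 10, above 0 on its 4 arrays, and the ecdysone receptor gene EcR at -0.27 ± 0.13 (SE). limma called 0 of these regulators in the fit of both days.

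Conjugation and efflux genes act on the products of P450 enzymes. Of the glutathione transferase, UDP-glycosyltransferase and transporter genes, 39 were on the array. At day 14, 13 of 18 tested lay below 0, beside 50.7% of all features, with a median of -0.11. There the smallest p went to GstE12 at -0.33 ± 0.15 and GstD9 at -0.41 ± 0.20 (SE). At day 10, 12 of 23 lay below 0, beside 43.5% of all features, with a median of -0.00. There the smallest p went to Mdr65 at -0.76 ± 0.26 and Ugt37E1 at -0.75 ± 0.31 (SE, n = 3 each). limma called 0 of them on either day, also with each day fitted alone. At an unadjusted p under 0.05 there were 0 at day 14 and 2 at day 10, both lower. The ecdysteroid P450 genes with named symbols (phm, dib, sad, spo, spok and shd) were not among the named rows.

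The labelled tissue was set against marker genes. Of 15 photoreceptor markers 8 were on the array, and all 8 had values, as had the 3 neuron markers present. Of 16 fat body marker symbols, some of them synonyms, 11 were present, all with values. At day 14, where 50.7% of all features tested lay below 0, 7 of 7 tested fat body markers did, with a median of -0.28. Of these, sxe2 and Cyp4d21, itself a P450 gene, were called with day 14 alone (adjusted p = 0.0107 and 0.0302 with limma). The fat body medians on day 14 replicates 1 to 4 were -0.27, 0.06, -0.48 and -0.24. On day 10 replicates 1 to 4 they were 0.25, -0.27, -0.56 and -0.24. At day 10, 6 of 10 fat body markers were below 0, beside 43.5% of all features, with a median of -0.22. On day 10 replicate 1 the fat body median was above 0 and the P450 median below 0. Photoreceptor markers at day 14 were below 0 in 5 of 5, with a median of -0.13, glial markers in 2 of 2, muscle markers in 3 of 3 and neuron markers in 2 of 3. Gut and Malpighian tubule markers were below 0 in 1 of 3, with a median of 0.11. On day 14 replicates 1 to 4 the photoreceptor medians were 0.28, -0.16, -0.49 and -0.39, and the muscle medians 0.09, 0.19, -0.34 and -0.55, lower on both swapped arrays. The part of RNA from any of these tissues in the P450 values was not tested. No oenocyte marker was among the named rows.

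Of the members, 15 were tested on neither day. No value at all was left for Cyp308a1, Cyp317a1 and Cyp4aa1. The other 12, among them Cyp6g2, Cyp12b2 and Cyp9h1, had values on too few arrays and enter no count above.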

How the data were processed

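Two-colour cDNA arrays set labelled RNA of treated heads against control heads, 4 arrays per day, 2 of them dye-swapped. Per the labels' protocols and the submitters' processing notes, spots were quantified with GenePix Pro 6.0 and ratio-normalised with Acuity 4.0. Per the series text, kept spots had under 3 percent saturated pixels, an R2 of at least 0.6 and a signal-to-noise ratio of at least 3. The authors deposited log2 ratios per spot, a scale judged from the values. Precision is limited by how many arrays there were.

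From these, 2 capped values were left out, each array was centred on its median, and the swapped arrays' signs were turned. Whether the authors had turned them was judged from the slide pattern. Print-block medians (named spots on an array, unnamed on the other) were compared in pairs of opposite orientation. They correlated at 0.28 to 0.84, above 0 in 16 of 16 pairs. Row by row, deposited values of opposite orientation correlated at -0.02 to 0.43, above 0 in 15 of 16 pairs. Those of the same orientation correlated at -0.04 to 0.45, above 0 in 10 of 12. The row values do not tell the readings apart. Names came from the platform annotation, updated through RefSeq (14894 of 15116 rows naming 1 gene matched). All 8 arrays entered 1 limma 3.58.1 fit (R 4.3.3) with a mean per day and a gene-wise dye term. A feature needed values on 3 arrays of a day. P-values were adjusted by Benjamini-Hochberg over all features, with 0.05 as the threshold, and the steps were tested on simulated data. Each p-value sets a fitted value against limma's estimate of the spread between arrays after the dye term. That estimate borrows from all features tested.

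Genes named are, per comparison, the 10 P450 genes with the smallest p, the highest and lowest of each family with several tested genes, 5 examples (Cyp313a1, Cyp9f2, Cyp4e2, Cyp28d1, Cyp6d4), and the 2 smallest p of each partner list. Neighbours, family remainders and genes with known roles were added after values were seen. The members and lists were chosen with earlier results of these data known. Alternatives tried are given in the closing section. Fits of clones, of all-8-array features, and of a day alone without 1 array were added after seeing the data.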

Additional observations from a re-analysis of the deposited data

Results flagged for a closer look

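The P450 genes named by rule, and the median over P450 genes, gave 32 sets of 4 arrays. Of these sets, 4 held an array that stood apart from the other 3, where chance gives about 1 in 20. Cyp313a1 had -0.50 on day 14 replicate 4, while the other arrays lay between -0.94 and -0.91, so the array apart was the one nearest to 0. Cyp12a5, of the mitochondrial clan, had -0.365 on day 14 replicate 2, with the others between 0.19 and 0.28. Cyp9b1, of the CYP3 clan, had 0.187 on the same array, with the others between -0.28 and -0.21. Cyp9f3 had -1.525 on day 10 replicate 1, with the others between 0.00 and 0.24.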

How the results depend on the processing

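In the fit of both days limma called 0 P450 genes in each comparison under every alternative except those named here. At day 14, fitting the day alone called 4 of 35 P450 genes, 2 of 24 partner genes and 70 of 7529 features. Scaling arrays to one spread called 4, 1 and 39, and array weights called 1 (Cyp313a1, adjusted p = 0.0273) and 2 features. Taking swapped arrays as already turned called 1 of 46 P450 genes, 1 of 36 partner genes and 304 of 11509 features at day 10. It moved the day 14 P450 median to -0.02. Uncentred arrays gave a day 14 median of -0.22, and the Cy3 over Cy5 reading gave medians of 0.12 at day 14 and 0.16 at day 10. Without 1 array, 0 P450 and 0 partner genes were called in the fit of both days. All features called were 0 to 1 at day 10 and 0 to 1 in the difference (1 each without day 10 replicate 4). P450 medians ran from -0.20 to -0.04 at day 14, from -0.23 to -0.12 at day 10 and from 0.03 to 0.10 in the difference. Day 14 alone without 1 array called 2 to 5 P450 genes, of 25 to 29 tested, and 0 to 2 partner genes. It called 227 of 5619 features without replicate 1 and 386 of 5992 without replicate 2. Without replicate 3 it called 24 of 5457, and without replicate 4 it called 31 of 6124. Group-alone medians then ran from -0.20 to -0.05 at day 14 and from -0.26 to -0.08 at day 10. The median difference, 0.06, was 0.16 with print-block medians subtracted, 0.12 with array weights, 0.00 with arrays scaled to one spread, -0.01 with swapped arrays taken as turned and -0.06 with Cy3 over Cy5. On features with all 8 arrays, Cyp313a1 had an adjusted p of 0.0868 at day 14. The cause of these changes was not tested. The replicate block in place of the dye term called 0 P450 genes of 28 and 0 of 6419 features, with a median difference of 0.07, and changed no call. Same-numbered arrays, which also share dye orientation, had deviations correlated at 0.06, 0.42, 0.39 and 0.10 over 3543 features. Other-numbered arrays of the same orientation correlated at 0.09, 0.24, 0.22 and 0.22. The numbers were not taken as pairs because no label says that they tie arrays of the 2 days. Filters on spot signal limit what could be tested: 15 P450 genes were tested on neither day.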

Other observations

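Genes that resemble the P450 genes by name but are not members had these values. Cyp12d1-d, one of a pair of near-identical mitochondrial P450 genes whose spots may bind both RNAs, had 0.69, 1.25, 0.04 and -0.40 at day 10. It fitted at 0.40 ± 0.17 (SE, adjusted p = 0.727 with limma), and 3 of its 4 arrays were above 0. Cyp4d21, a P450 gene of the male head fat body, lay below 0 on all 8 arrays, at -0.77 ± 0.18 at day 14 and -0.54 ± 0.20 at day 10 (SE). The cyclophilin gene Cyp40 had -2.26, -1.28 and -0.56 on 3 day 10 arrays and fitted at -1.16 ± 0.27 (SE, adjusted p = 0.727), with replicate 1 again the lowest.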
